A study of Mus musculus with 45 samples.

Results

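The S100 proteins are small calcium-binding proteins, and 8 S100 genes were followed while mouse neural progenitor cells were reprogrammed to pluripotency: S100a1, S100a4, S100a6, S100a10, S100a11, S100a13, S100b and S100g. The members were chosen by gene symbol, and all 8 had a row in the gene table of 23575 genes. RNA was read as long cDNA molecules on Oxford Nanopore flow cells in 45 libraries, 22 of the R9 kind (direct cDNA from poly(A) RNA) and 23 of the R10 kind (PCR-amplified cDNA from total RNA). The progenitors were stably transfected lines made from Oct4-GFP stem cells (the O4G line, which comes from the R1 line). They carried doxycycline-inducible OKMS or OKS factors, with a luciferase element in both genotypes whose role the labels do not state, or no factors (wild type). Progenitors grew in N2B27 with EGF, FGF2 and heparin. Induction was in fetal bovine serum with LIF and doxycycline, called serum medium below, and some cultures were moved to 2i-LIF, which holds LIF with the kinase inhibitors CHIR-99021 and PD0325901 and for which no doxycycline is listed. R9 cultures were moved at day 6, and the day of the move for the R10 cultures is not given. Wild-type progenitors held for 2 days in serum medium are the medium control, and stem cells of the lines O4G, R1 and R1 clone 3 were grown in 2i-LIF.

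An S100 protein folds around a pair of EF-hands, loops that hold calcium, and usually works as a dimer that binds a partner protein when calcium rises. S100b is widely used as a marker of astrocytes in the brain. S100a10 is the calcium-independent exception and pairs with annexin A2, S100a4 and S100a6 are known from migrating and from dividing mesenchymal cells, and S100g (calbindin-D9k) is known from calcium transport in the intestine. S100a11 binds annexin A1, S100a13 takes part in the release of FGF1, and S100a1 is best known from muscle and brain. In GENCODE M21 (GRCm38) all 8 are protein-coding, and 6 lie on chromosome 3. S100a1 (chr3:90511034-90514392, minus strand) and S100a13 (chr3:90514435-90524581, plus) point away from each other, with GENCODE starts 43 bases apart. S100a4 (chr3:90603771-90606045) and S100a6 (chr3:90612882-90624181) follow on the plus strand 6836 bases apart, and S100a11 (chr3:93520488-93526287) and S100a10 (chr3:93555080-93564643) lie 28792 bases apart. S100b is on chromosome 10 (chr10:76253853-76261159, plus) and S100g on the X (chrX:162961992-162964599, minus).

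The sequences before the annotated gene starts are shown for the neighbours on chromosome 3 (the segment between S100a1 and S100a13, then S100a4 and S100a6) and for S100a11 and S100g, both high in the medium control. They come from RefSeq (GRCm38.p6), where 7 of the 8 members had an entry. Each reads 5′ to 3′ on its gene's strand (the shared segment on the plus strand), up to the base before the RefSeq start. The RefSeq start of S100a1 differs from that of GENCODE, so the shared segment is 104 bases long and part of it lies inside the GENCODE S100a1 gene. Capitals mark matches to a searched motif.
S100a1 to S100a13, chr3:90514331-90514434: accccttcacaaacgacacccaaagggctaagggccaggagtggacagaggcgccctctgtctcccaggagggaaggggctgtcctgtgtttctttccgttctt
S100a4, chr3:90603520-90603769: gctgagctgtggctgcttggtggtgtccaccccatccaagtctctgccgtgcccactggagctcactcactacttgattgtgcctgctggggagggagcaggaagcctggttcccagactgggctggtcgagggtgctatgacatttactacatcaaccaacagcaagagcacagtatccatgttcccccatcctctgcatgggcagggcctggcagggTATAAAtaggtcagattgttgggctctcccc
S100a6, chr3:90612644-90612893: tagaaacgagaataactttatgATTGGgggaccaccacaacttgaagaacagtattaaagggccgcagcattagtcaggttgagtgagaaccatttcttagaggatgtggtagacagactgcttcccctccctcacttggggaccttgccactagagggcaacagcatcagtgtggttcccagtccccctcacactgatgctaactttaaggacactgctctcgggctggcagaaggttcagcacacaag
S100a11, chr3:93520246-93520495: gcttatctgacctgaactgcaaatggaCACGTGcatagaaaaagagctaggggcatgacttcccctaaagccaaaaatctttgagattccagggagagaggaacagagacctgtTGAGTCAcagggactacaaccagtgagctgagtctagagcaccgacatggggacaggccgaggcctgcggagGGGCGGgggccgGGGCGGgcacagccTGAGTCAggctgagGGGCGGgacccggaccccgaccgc
S100g, chrX:162964600-162964849, minus: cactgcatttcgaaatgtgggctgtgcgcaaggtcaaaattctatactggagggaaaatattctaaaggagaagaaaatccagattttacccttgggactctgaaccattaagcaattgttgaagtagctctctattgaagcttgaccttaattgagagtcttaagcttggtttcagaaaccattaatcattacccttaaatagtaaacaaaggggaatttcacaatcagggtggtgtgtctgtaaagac

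A set of 6 motifs was searched on both strands in the 250 bases before each start. The TATA box TATAAA was found in S100a4, where it begins 31 bases before the start, and in 12.4% of the 32851 windows of all genes. The AP-1 motif TGANTCA was found in S100a11, at 136 and 38 bases before the start, and in 6.75% of windows. S100a11 also held the E-box CACGTG (223 bases before, in 6.02% of windows) and the GC box GGGCGG at 64, 52 and 24 bases before (in 32.7% of windows). The CCAAT box CCAAT was found in S100a6 on the opposite strand (228 bases before) and in S100b (202 and 20 bases before, the latter on the opposite strand), and in 33.8% of windows. No motif overlapped another in these windows. The windows of S100a1, S100a13 and S100g held none of the 6, and the STAT motif TTCNNNGAA (7.02% of windows) was in no member. The S100g window had 38.4% G and C bases and that of S100a11 60.0%, against a median of 52.4% over all windows. A match is a description of these letters and not of a bound site.

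Progenitors gave 8 libraries (4 R9, 4 R10), the medium control 3 (1 and 2), serum medium 20 from days 2 to 20, with 1 library per system, day and kind, 2i-LIF 5 and stem cells 9 (2 and 7). The depth was 447990 to 1390424 reads in R9 and 566599 to 4236442 in R10, so that 1 read was worth 0.236 to 2.23 CPM (a gene's reads scaled to the library's total). Marker genes followed the labels: the sum of 6 pluripotency markers was 11001 to 13613 CPM in stem cells and 10.8 to 30.4 CPM in progenitors, and 7 progenitor markers summed to 4438 to 7031 CPM in progenitors and 5.45 to 43.3 CPM in stem cells, although Sox1 was at 0 in every progenitor library. Some R10 libraries stood apart from their own group. The R1 stem cell library with no replicate number had 0.124% of its reads on mitochondrial genes against 1.81 to 2.35% in the other 6, and the medium control libraries differed from each other more than any other same-group libraries. Nothing in the labels says that replicates came from separate cultures, so p-values measure the spread between these samples only. In bulk RNA, fewer cells of a type and less RNA per cell cannot be told apart.

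In progenitors, the family was carried by S100a10 and S100b. TPM are the deposited transcript values, and transcript length alone did not account for their gap to CPM (see the processing). In TPM, S100a10 was at 285 ± 78.0 (SD, n = 8) and S100b at 213 ± 87.0, ahead of S100a6 at 24.7 ± 24.8. S100a10 was the top member in 4 of the 8 libraries and S100b in the other 4. In CPM, S100b ranged from 31.1 to 174 with a median of 123, and its 3 lowest values were in wild-type libraries (31.1 and 86.4 in R10, 54.8 in R9), against 174 in OKMS and 151 in OKS cells not yet induced in R10. In R9 the other wild-type library, at 131 CPM, was above OKMS (117) and OKS (128). S100a10 ranged from 101 to 211 CPM, with the wild-type libraries (174 to 211) above the OKMS and OKS libraries (101 to 147) in both kinds. S100a11 (20.2 to 34.7 CPM) and S100a13 (10.8 to 33.9 CPM) were low. S100a1 (0 to 4.01 CPM), S100a4 (0 to 3.37 CPM) and S100g (0 to 1.34 CPM, 4 reads in 8 libraries) were close to the limit of detection.

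S100a6 differed widely among progenitors. It was at 0.635 and 5.17 CPM in the wild-type, 31.2 in the OKMS and 85.9 in the OKS library of R10, and at 24.1, 6.78, 2.69 and 10.1 CPM in the same order in R9. In R10 the share of reads on mitochondrial genes was also lower in the wild-type libraries (0.272 and 0.153%) than in OKMS and OKS (1.08 and 1.11%), and its part in these values was not tested. The lines ranked differently in R9 and R10, and its rank among genes by CPM ran from 2315 to 14063.

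**Figure D1:**
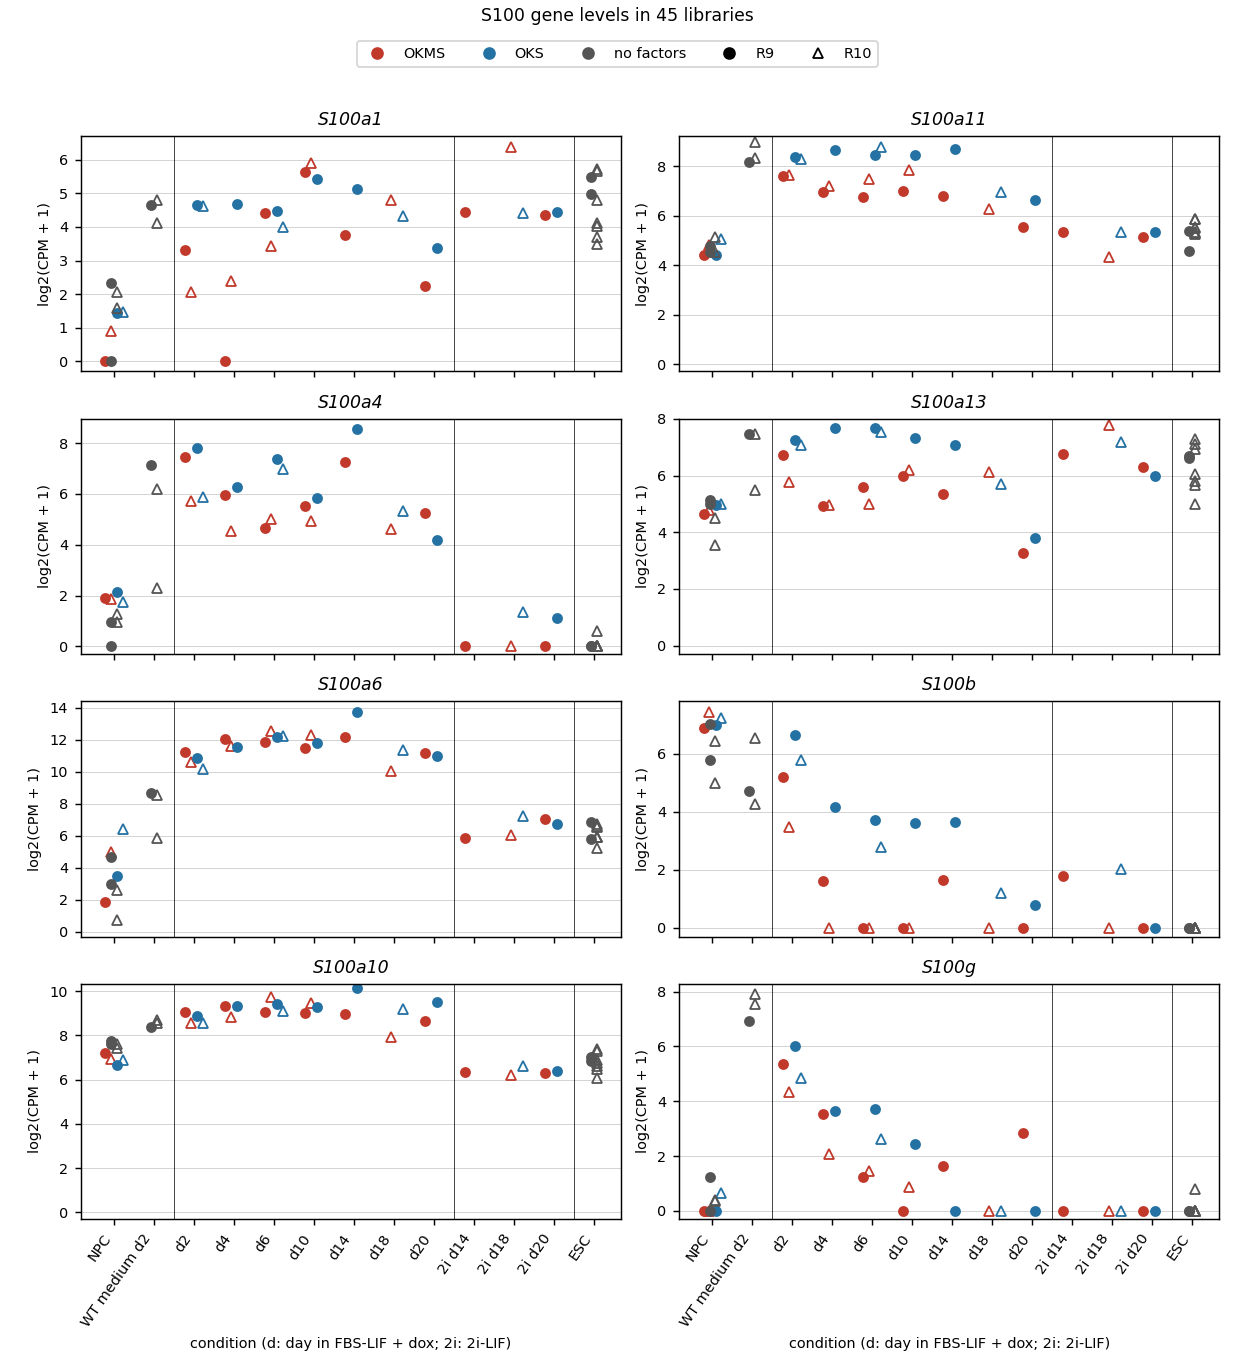
Level of each S100 member in all 45 libraries. The y axis is log2(CPM + 1) and the x axis the stage; each point is 1 library (circles R9, open triangles R10, colour for the factor system). S100a6 stands at 1085 to 14014 CPM in all 20 serum libraries, and S100g peaks in the 3 medium control libraries (120 to 237 CPM).

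In serum medium alone, without factors, 6 of the 8 members were higher after 2 days. The question of this control is what the change of medium does by itself, and it was tested in R10 (2 wild-type progenitor against 2 medium control libraries) with limma on log2(CPM + 1); a call needed a log2 difference of at least 1 in size and, after Benjamini-Hochberg adjustment, a p under 0.05. By this rule 26.8% of all genes were called, 14.9% as higher, and the 6 called members were all higher. The median difference of the 8 members was 2.88 and that of all genes 0.12.

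S100g, the calbindin of calcium-transporting epithelia, showed the largest difference. It was at 0.318 and 0.287 CPM in the R10 wild-type progenitors (2 reads in all) and at 185 and 237 CPM in the medium control (1191 reads), with 0 and 1.34 against 120 CPM in R9. The groups were far apart in both kinds of library. The difference was 7.33 ± 0.32 (SE) on the log2(CPM + 1) scale (limma, adjusted p = 7.83e-04); its size depends on the pseudocount, since the progenitors are at the floor. In TPM, S100g reached 853 ± 226 (n = 3) in the medium control and was the top member of the family in 2 of these 3 libraries. In CPM, S100a11 was above S100g in all 3.

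S100a11 was at 21.9 and 34.7 CPM in the progenitors and at 319 and 510 CPM in the medium control, which is 14.6-fold higher (3.82 ± 0.34 on the log2 scale, limma adjusted p = 0.00249). The R9 library, at 286 CPM against 26.7 and 22.3, lay on the same side. S100a6 was at 0.635 and 5.17 against 57.5 and 382 CPM (75.8-fold, 5.56 ± 1.02, limma adjusted p = 0.0144). The medium control libraries of S100a6 were far from each other, and the R9 library (409 CPM) was near the higher one. Its fold rests on 20 reads in the 2 R10 wild-type progenitor libraries. The mean of all 4 R10 progenitor libraries was 30.7 CPM, and the R9 wild-type progenitors given above were also higher. Over the alternatives the S100a6 difference ranged from 3.53 to 6.91. S100a1 was at 3.18 and 2.01 against 16.4 and 26.7 CPM (8.32-fold, 2.63 ± 0.43, limma adjusted p = 0.0107). S100a10 was at 195 and 174 against 411 and 377 CPM (2.13-fold, 1.09 ± 0.20, limma adjusted p = 0.0149), a smaller change of a gene that was already high. S100a13 was at 10.8 and 21.5 against 44.2 and 176 CPM (6.81-fold, 2.46 ± 0.69, limma adjusted p = 0.0463).

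The other two members did not pass. S100a4, the mesenchymal member, was at 0.953 and 1.43 against 3.91 and 72.1 CPM (3.12 ± 1.22, limma adjusted p = 0.109), and its R9 library reached 139 CPM. S100b was at 31.1 and 86.4 against 18.4 and 92.9 CPM (-0.31 ± 0.83, limma adjusted p = 0.808), so its groups overlapped. Replicate 2 was the lower of the R10 medium control libraries for every member but S100a10, and it also had the lower sum of progenitor markers (2813 against 5611 CPM). A test of whether the medium effect differed between R9 and R10 rests on 1 R9 medium control library. It cannot show that the effect was the same. Leaving out any 1 of the 4 libraries left 0 or 1 member called, and the R9 comparison of 1 against 2 libraries called none; no difference between R9 and R10 in this effect passed the test of the difference (limma, smallest adjusted p of the 8 members 0.812).

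Markers of other cell types moved beside these genes. The 7 astrocyte markers (a list that holds S100b) summed to 1376 and 1560 CPM in the R10 wild-type progenitors and to 7480 and 7280 CPM in the medium control, and 3 of the 7 were called higher; Gfap, the intermediate filament of reactive astrocytes, went from 5.72 and 5.16 to 3015 and 1056 CPM. Of the 9 fibroblast or mesenchymal markers 6 were tested and 4 were called higher, and their sum went from 48.9 and 61.7 to 1164 and 1128 CPM. Of 6 progenitor markers tested 3 were called lower and 0 higher (median -0.83). The part of these cell types in the S100 changes was not tested. Of 22 genes whose proteins bind or act with S100 proteins, 15 were tested here: 7 were called higher and 3 lower, with a median of 0.62. The largest were Ahnak, a scaffold that the S100a10 and annexin A2 complex binds (5.94), Anxa11 (5.53) and Anxa1 (4.20). Anxa2, the partner of S100a10, went from 77.8 and 164 to 649 and 1092 CPM (2.89, limma adjusted p = 0.00846). Of 14 other small EF-hand genes tested, 3 were called higher and 5 lower (median -0.05), led by Calb2 (-2.99), Hpcal1 (-2.58) and Pvalb (2.12).

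With factors at day 2, S100g was lower than in the medium control. OKMS and OKS cells were compared with the wild-type cells of the same day and medium in R10 (2 against 2 libraries), a comparison that shares its wild-type libraries with the one above. Of all genes 0.74% were called, 0.026% (4 genes) as lower, and of the 8 members 1 was called. S100g was at 19.0 CPM in OKMS and 28.0 CPM in OKS against 185 and 237 CPM in wild-type cells, which is 8.98-fold lower (-3.13 ± 0.40, limma adjusted p = 0.0107). In R9 it was at 39.6 and 62.8 against 120 CPM, also lower in both, but not called (-1.25 ± 0.44, limma adjusted p = 0.736, 2 libraries against 1, which is assumed to vary like the others). In R10 the share of reads on mitochondrial genes was 0.319 and 0.165% without factors against 1.51 and 1.64% with them. The astrocyte marker sum was 7480 and 7280 CPM without factors against 1801 (OKMS) and 4603 CPM (OKS), with 0 of its 7 genes called. The part of either in the S100g value was not tested.

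S100a6 was at 1561 and 1161 CPM with factors against 57.5 and 382 CPM without, groups that did not overlap, but it missed the threshold over all genes (3.17 ± 0.73, limma adjusted p = 0.0897). In R9 it was at 2422 and 1850 against 409 CPM. With both kinds in 1 fit the difference was 2.85 ± 0.51 (limma adjusted p = 0.0170), and the members called were then S100a6 and S100g. The remaining members, S100a11 among them, had differences between -1.11 (S100a1) and 1.54 (S100a4) and were not called (limma adjusted p from 0.478 to 0.976); the sign of S100a1, S100a4, S100a10, S100a13 and S100b turned under at least 1 alternative. Without OKMS, OKS or wild-type replicate 3 the count for R10 was 0.

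**Figure D2:**
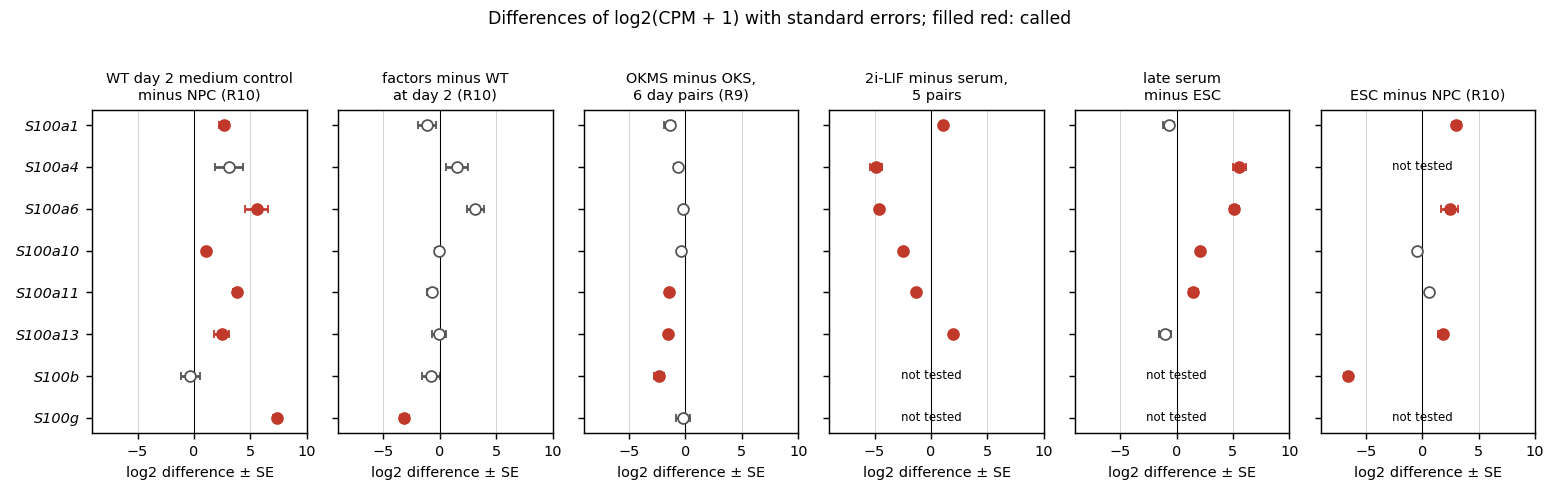
Log2 difference with its standard error for each member in 6 comparisons (limma on log2(CPM + 1)). Filled red points passed the adjusted p and the size threshold and open points did not. S100g was higher by 7.33 in the medium control, and the move from serum medium to 2i-LIF gave S100a6 a difference of -4.59 and S100a13 one of 1.95.

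Over the whole course in serum medium, S100a6 became 1 of the most abundant mRNAs of the cells. In R9 it went from 2.69 (OKMS) and 10.1 CPM (OKS) at day 0 to 2422 and 1850 at day 2, 4330 and 2971 at day 4, 3769 and 4678 at day 6, 2855 and 3505 at day 10, 4547 and 14014 at day 14, and 2343 and 2077 CPM at day 20. In R10 it was at 31.2 and 85.9 CPM at day 0, 1561 and 1161 at day 2, 3192 (OKMS) at day 4, 5954 and 4771 at day 6, 4964 (OKMS) at day 10, and 1085 and 2693 CPM at day 18. Every serum library was above every progenitor library. Its rank among all genes by CPM was 4 to 74 (median 14) on days 2 to 6 and 2 to 98 from day 14 on. In TPM, S100a6 made up a median of 2.84% of the 8 members' sum in progenitors, 13.7% in the medium control, 73.6% on days 2 to 6 and 80.4% from day 14 on, and it was the top member in all 20 serum libraries. The family's sum went from a median of 551 TPM in progenitors to 6442 TPM on days 2 to 6.

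The effect of day, set against day 0, was tested by an F test in limma with an additive term for the system. In R10, days 4 and 10 held OKMS alone, so the differences of those days, here and for the members below, rest on 1 library and the system term. In R9 10.7% of genes were called and 7 of the 8 members, and in R10 2.04% of genes and 4 of the 8. The largest day difference of S100a6 was 10.28 ± 0.52 at day 14 in R9 (adjusted p = 1.69e-05) and 6.80 ± 0.74 at day 10 in R10 (adjusted p = 0.0318). The highest value, OKS day 14 at 14014 CPM (16941 reads), stood in the library with the highest fibroblast marker sum of the series (3797 CPM), and without day 14 S100a6 was still called in R9. Without day 2 or day 18 no gene was called in R10. With a pseudocount of 0.25 or no filter on low genes no member was called in R10, while edgeR and DESeq2 on the recovered reads each called 7.

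S100a4 and S100a10 rose in the same R9 course. S100a4 was at 175 and 226 CPM (OKMS, OKS) at day 2 in R9 and between 17.2 and 163 CPM later, apart from 152 and 371 CPM at day 14, and between 22.3 and 126 CPM in the R10 serum libraries. Every serum library was above every progenitor library for S100a4 too. Its largest difference in R9 was 5.89 ± 0.63 at day 14 (limma adjusted p = 0.00163), and in R10 the value of 4.19 ± 0.56 at day 6 missed the threshold (limma adjusted p = 0.0508). S100a10 held between 243 and 1129 CPM over the 20 serum libraries (median 547) against 101 to 211 CPM in progenitors. It was called in R9 (2.62 ± 0.37 at day 14, limma adjusted p = 0.00795) and not in R10 (2.61 ± 0.60 at day 10, limma adjusted p = 0.0982). In the R9 course 5 of 9 fibroblast markers were called with a higher largest difference, with Acta2 at 9.13 and Tagln at 7.84, and the list's sum was 79.4 and 101 CPM at day 0 and 227 to 3797 CPM in the serum libraries. Its part in the S100 values was not tested.

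S100a11 was high from day 2 on and lowest at the last day. It was at 196 and 328 CPM (OKMS, OKS) at day 2, 123 and 408 at day 4, 106 and 347 at day 6, 127 and 350 at day 10, 110 and 410 at day 14, and 45.6 and 99.2 CPM at day 20 in R9, from 20.2 in both systems at day 0. All of these serum values were above the progenitors, and the OKS value was the higher at every day. The largest difference was 3.58 ± 0.40 at day 2 in R9 (limma adjusted p = 0.00123) and 3.26 ± 0.44 at day 10 in R10 (limma adjusted p = 0.0387), where the values of 77.2 and 124 CPM at day 18 were again the lowest. S100g peaked at day 2 and was lower at the later days: in R9 39.6 and 62.8 CPM at day 2, 10.4 and 11.4 at day 4, 1.36 and 12.0 at day 6, and at most 6.16 CPM after that. It was called in R10 (4.26 ± 0.58 at day 2, limma adjusted p = 0.0434) and missed the threshold in R9 (5.67 ± 1.17 at day 2, limma adjusted p = 0.0547).

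S100b, the astrocyte marker, was the member that fell. It went in R9 from 117 and 128 CPM at day 0 to 36.2 and 100 at day 2, 2.09 and 17.2 at day 4, 0 and 12.0 at day 6, 0 and 11.2 at day 10, 2.11 and 11.6 at day 14, and 0 and 0.719 CPM at day 20. The OKMS values were at or near 0 from day 4 on, while OKS cells kept a low level to day 14. Its largest difference was -6.56 ± 0.86 at day 20 in R9 (limma adjusted p = 0.00342) and -6.75 ± 0.81 at day 18 in R10 (limma adjusted p = 0.0387). The astrocyte marker sum, S100b included, went in OKMS from 1598 CPM at day 0 to 538 at day 4 and 45.6 at day 20 in R9. In OKS it was at 1583 CPM at day 0, 3094 at day 2, 1799 at day 4, 1388 at day 6, 1680 at day 10, 337 at day 14 and 164 at day 20. The list was mixed in the R9 course: of 7 markers 1 was called with a higher largest difference (Gfap, 7.22) and 3 with a lower one, S100b among them. The progenitor marker sum went from 5703 and 5371 to 18.5 and 51.7 CPM, and the part of either in the S100b values was not tested.

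S100a1 and S100a13 behaved differently from the rest. S100a1 peaked at day 10, at 49.2 and 42.4 CPM in R9 and 58.6 CPM in R10 (OKMS), against 0 to 24.8 CPM on days 2 to 6 and 3.69 to 33.9 CPM from day 14 on. The 3 values of day 10 were the highest of all serum libraries. It was called in R9 (4.83 ± 0.94 at day 10, limma adjusted p = 0.0429) but not in R10 (5.12 ± 0.96, limma adjusted p = 0.0952), and the R9 call was lost without day 2, 10, 14 or 20. S100a13 was at 106 and 152 CPM at day 2 in R9, at 29.2 and 204 at day 4, and at 8.62 and 12.9 CPM at day 20, below the day 0 values of 24.2 and 30.4. It was called in R9 (2.19 ± 0.53 at day 2, limma adjusted p = 0.00844), where the call was lost without day 20, and not in R10 (1.77 ± 0.85, limma adjusted p = 0.434). With no term for the system, the R9 count was 2 members (S100a4 and S100a6).

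Partner genes moved in the same courses. Of 18 partner genes tested in R9, 6 were called with a higher and 2 with a lower largest difference (median 1.63, against 0.63 over all genes, of which 10.7% were called), led by Anxa11 (6.39), Anxa1 (6.25) and Plat, the tissue plasminogen activator (-6.03). In R10 4 of 17 were called (2.04% of all genes), all higher, led by Ahnak (5.90), Anxa11 (5.73) and Anxa1 (5.27). Anxa2, whose protein binds that of S100a10, was at 168 ± 57.7 CPM in progenitors (n = 8) and at 803 ± 476 CPM in the serum libraries (n = 20). Of 13 other small EF-hand genes, 0 were called higher and 4 lower in R9, among them Hpcal1 (-2.00), Chp1 (-1.48) and Sri (-1.35). Among other S100 genes, 3 of the 9 looked for were in the table. S100a16 went from 25.9 ± 7.87 CPM in progenitors to 151 ± 131 CPM in serum and was called in R9 (3.43) but not in R10 (2.45, limma adjusted p = 0.175). S100a3 was at 4.79 ± 3.40 CPM in serum and at 0 in 7 of 8 progenitor libraries, and neither S100a3 (limma adjusted p = 0.169 in R9 and 0.115 in R10) nor S100a14 was called in either course.

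In R9, cells reprogrammed with OKMS held less S100a11, S100a13 and S100b than cells with OKS. The systems, which differ by Myc in name, were compared in the 6 R9 serum days with day as a block. The labels do not say that the days are separate cultures, and Myc cannot be told apart from other differences between the transfected lines. Of all genes 18% were called, 11% as lower in OKMS, and 3 of the 8 members were called, all lower in OKMS (median of the members -1.02, of all genes -0.11). S100a11 was lower in OKMS at 6 of 6 days, as listed above (-1.44 ± 0.18, limma adjusted p = 8.11e-04). S100a13 was at 106, 29.2, 47.8, 61.9, 40.1 and 8.62 CPM in OKMS and at 152, 204, 203, 158, 134 and 12.9 CPM in OKS on days 2, 4, 6, 10, 14 and 20, so OKMS was lower at 6 of 6 days (-1.49 ± 0.27, limma adjusted p = 0.00252). S100b was lower at 6 of 6 days as well (-2.35 ± 0.47, limma adjusted p = 0.00359).

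The other 5 members were not called between the systems: S100a1 (-1.39, limma adjusted p = 0.0598), S100a4 (-0.65), S100a6 (-0.19), S100a10 (-0.42) and S100g (-0.20). S100a1, S100a4 and S100a10 were lower in OKMS at 5 of 6 days, S100a6 at 3 of 6 and S100g at 4 of 6. In the 3 R10 pairs (days 2, 6 and 18), S100a11 and S100b were lower in OKMS in 3 of 3 and S100a13 in 2 of 3, and no gene was called. Without day as a block no member was called. On the same R9 days all 4 epithelial markers tested were called higher in OKMS, 5 of 7 fibroblast markers and 5 of 7 astrocyte markers (S100b included) lower, and 3 of 5 progenitor markers lower. Of the pluripotency markers 3 of 6 were called higher (median 2.35). The part of this makeup in the S100 values was not tested. No member's OKMS to OKS difference passed a test for a change between days 2 to 6 and days 10 to 20 (limma, smallest adjusted p 0.633). No gene passed it (0 of 18925), so it does not show that the differences were the same. Of 17 partner genes 4 were called lower in OKMS, led by Fgf1 (-2.29), the growth factor released with S100a13, Plat (-1.73) and Atp2b1 (-1.22).

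The move to 2i-LIF split the family in opposite directions. In 5 pairs of the same system, day and kind of library, 12.3% of genes were called, 5.95% as higher and 6.32% as lower in 2i-LIF. Of the 8 members 6 had enough reads to be tested, and all 6 were called, 4 lower and 2 higher. The median of the 6 was -1.93 and that of all genes -0.03.

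S100a6 was at 4547, 1085, 2343, 2693 and 2077 CPM in serum and at 56.2, 65.2, 131, 147 and 106 CPM in 2i-LIF (OKMS day 14 R9, OKMS day 18 R10, OKMS day 20 R9, OKS day 18 R10, OKS day 20 R9), 25.2-fold lower (-4.59 ± 0.25, limma adjusted p = 7.15e-09). The groups did not overlap. In the same pairs S100a4 was at 152, 23.7, 36.9, 39.7 and 17.2 CPM in serum and at 0, 0, 0, 1.56 and 1.16 CPM in 2i-LIF (245 against 2 reads, -4.84 ± 0.53, limma adjusted p = 8.69e-06). The 2i-LIF level of S100a4 is that of single reads. S100a10 was at 503, 243, 408, 588 and 739 CPM in serum and at 79.4, 72.3, 77.4, 97.0 and 82.6 CPM in 2i-LIF, 6.07-fold lower (-2.50 ± 0.19, limma adjusted p = 1.44e-07). S100a11 was at 110, 77.2, 45.6, 124 and 99.2 CPM against 39.1, 19.4, 34.4, 39.1 and 39.6 CPM, 2.66-fold lower (-1.35 ± 0.23, limma adjusted p = 7.05e-04). For these 4 members every 2i-LIF library was below every serum library of the pairs.

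S100a13 and S100a1 went the other way. S100a13 was at 40.1, 69.7, 8.62, 51.2 and 12.9 CPM in serum and at 109, 220, 77.4, 144 and 62.9 CPM in 2i-LIF, 3.36-fold higher and higher in 5 of 5 pairs (1.95 ± 0.24, limma adjusted p = 3.28e-05), though the 2 groups overlapped (69.7 and 62.9 CPM). S100a1 was at 12.7, 26.7, 3.69, 19.2 and 9.34 CPM in serum and at 20.8, 82.9, 19.3, 20.3 and 20.9 CPM in 2i-LIF, 2.29-fold higher and higher in 5 of 5 pairs (1.11 ± 0.33, limma adjusted p = 0.0321), also with overlap. The S100a1 call was lost without 4 of the 5 pairs and with DESeq2, while those of the other 5 members held with each pair left out. S100b (4 reads in each medium) and S100g (7 reads in serum, 0 in 2i-LIF) were too low to test. No member's medium effect passed a test for a difference between OKMS and OKS (limma, smallest adjusted p 0.902). Of 18525 genes 1 passed it, so it does not show that the effects were the same.

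Of 15 partner genes tested across the media 3 were called, all lower in 2i-LIF: Anxa2 (-4.08), Plaur, the urokinase receptor (-3.30), and Anxa1 (-2.25). The other S100 genes S100a16 (-3.57) and S100a3 (-1.80) were also lower. Of 7 fibroblast markers tested 2 were called lower, of 5 epithelial markers 4 were called lower, and of 6 pluripotency markers 4 were called higher. The 5 serum cultures of the pairs held 5676 to 15642 CPM of the pluripotency markers and the 2i-LIF cultures 9800 to 15721 CPM, and the part of this mixture in the S100 values was not tested.

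**Figure D3:**
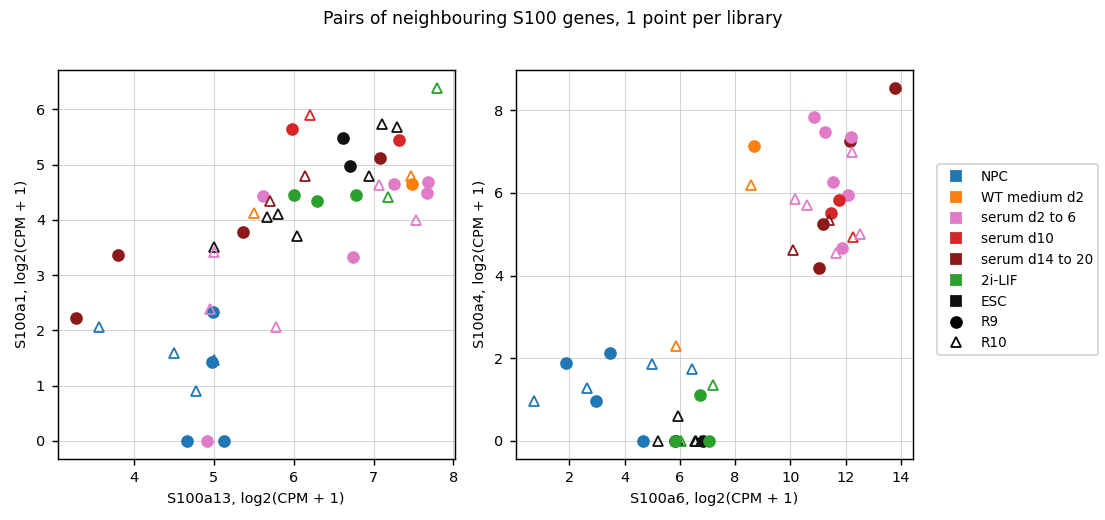
Levels of neighbouring members against each other, log2(CPM + 1) on both axes, 1 point per library coloured by stage. S100a1 and S100a13, which start 43 bases apart, spread along the diagonal. S100a4 and S100a6 are both high in serum. The S100a4 values of progenitors are low, and those of stem cells and 2i-LIF cells lie at or near 0, over a range of S100a6 values.

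No member passed the test between reprogrammed cells in 2i-LIF and stem cells. Between 5 2i-LIF and 9 stem cell libraries, with the kind of library as a term, 3.36% of genes were called and 0 of the 5 members tested. At an unadjusted p under 0.05 the count was 1 (S100a10, -0.49 ± 0.19, limma adjusted p = 0.151), and edgeR and DESeq2 each called 0. S100a4 (2 reads in each group), S100b (4 reads in 2i-LIF, 0 in stem cells) and S100g (0 and 2 reads) were too low to test. S100a6 was at 101 ± 39.8 CPM in 2i-LIF (n = 5) and at 75.5 ± 27.1 CPM in stem cells (n = 9), S100a13 at 123 ± 62.9 and 90.7 ± 43.1, S100a1 at 32.9 ± 28.0 and 28.6 ± 16.5, S100a11 at 34.3 ± 8.60 and 42.7 ± 10.8, and S100a10 at 81.7 ± 9.31 and 117 ± 32.2 CPM. All 5 ranges overlapped. The differences of S100a1 (0.15 ± 0.43), S100a6 (0.37 ± 0.28), S100a11 (-0.26 ± 0.23) and S100a13 (0.56 ± 0.36) were all under the size threshold of 1, and that of S100a1 was smaller than its error. Under the alternatives S100a1 ranged from -0.81 to 0.89 and S100a13 from -0.30 to 1.22, with 0 members called. The line was not a term of this fit, and the progenitors came from O4G. Against the O4G values given below, R10 2i-LIF cells held more S100a1 (82.9 and 20.3 CPM) and S100a13 (220 and 144 CPM). In R9 they held less S100a1 (20.8, 19.3 and 20.9 CPM), and S100a13 lay on both sides (109, 77.4 and 62.9 CPM). The family's sum had a median of 455 TPM in 2i-LIF and 433 TPM in stem cells, below the 4756 TPM of the late serum libraries.

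Late serum cells, from day 14 on, held more of 4 members than stem cells. Against the same 9 stem cell libraries 17.4% of genes were called, 8.19% as higher in the 6 late serum libraries, and 4 of the 6 members tested were higher: S100a6 (59.0-fold, 5.11 ± 0.42, limma adjusted p = 1.58e-07), S100a10 (5.15-fold, 2.06 ± 0.28, limma adjusted p = 4.48e-05), S100a11 (3.38-fold, 1.49 ± 0.37, limma adjusted p = 0.00738) and S100a4 (694 against 2 reads, 5.55 ± 0.55, limma adjusted p = 1.49e-06). The S100a6 range in late serum was 1085 to 14014 CPM against 36.0 to 114 CPM in stem cells, and that of S100a11 (45.6 to 410 against 22.7 to 57.7 CPM) overlapped. The OKS day 14 library weighed on these values: without it the fold of S100a6 was 33.7 and that of S100a11 2.13, and the late serum mean of S100a4 was 53.9 in place of 107 CPM. All 3 members were still called without it. S100a1 (-0.71 ± 0.49) and S100a13 (-1.01 ± 0.54) did not pass, and without that library S100a13 was called as lower (-1.29, limma adjusted p = 0.0468). These 2i-LIF and late serum comparisons share the stem cell libraries. S100b (18 reads in late serum, 0 in stem cells) and S100g (7 and 2 reads) were too low to test. Marker lists differed as well. Of 7 fibroblast markers tested 4 were called higher in late serum, with Acta2 at 7.67 and Tagln at 7.52, and the sum of the list was 227 to 3797 against 173 to 347 CPM. Of the epithelial markers 4 of 5 were called higher, of the progenitor markers 3 of 5, and of the pluripotency markers 4 of 6 lower (745 to 15642 against 11001 to 13613 CPM). The part of these cells in the S100 values was not tested. Of 13 partner genes 5 were called higher in late serum and 0 lower, led by Anxa2 (4.58), Plaur (2.88) and Plat (2.59).

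Stem cells and progenitors, the ends of the course, differed in 4 members. In R10 (7 against 4 libraries) 45.8% of genes were called and 4 of the 6 members tested, and in R9 (2 against 4 libraries) 36% of genes and the same 4 members of 7 tested. The members' counts are to be read against these shares. In R10 the share of reads on mitochondrial genes was 0.153 to 1.11% in the progenitor libraries. It was 0.124% in the R1 library of no replicate number and 1.81 to 2.35% in the other R10 stem cell libraries. Its part in the values below was not tested. S100b had 0 reads in all 9 stem cell libraries and 31.1 to 174 CPM in the 8 progenitor libraries. Against the floor of 3 reads over the stem cell group (0.124 CPM) this is at least 879-fold higher in progenitors (limma, -6.54 ± 0.36 with adjusted p = 3.03e-10 in R10 and -6.69 ± 0.39 with adjusted p = 7.50e-05 in R9). The other 6 astrocyte markers did not all go this way. In stem cells Aqp4 and Slc1a2 were at 0. Aqp4 was not tested in either kind, and Slc1a2 was called lower in R10 (-1.89, limma adjusted p = 3.77e-06) but not in R9 (-1.42, limma adjusted p = 0.134). Slc1a3 and Aldoc were called lower in both kinds (-6.12 and -5.36 in R10). Gfap was not called in R10 (-0.83, limma adjusted p = 0.0570), and Aldh1l1 was called higher in both kinds (1.95 in R10, limma adjusted p = 2.29e-05).

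S100a1 was at 0.879 to 3.18 CPM in R10 progenitors and at 10.4 to 52.2 CPM in R10 stem cells, 13.4-fold higher (3.01 ± 0.41, limma adjusted p = 1.03e-05), and 26.0-fold higher in R9. S100a13 was at 10.8 to 31.0 CPM against 31.1 to 157 CPM, 3.93-fold higher (1.81 ± 0.40, limma adjusted p = 8.21e-04), with 3.35-fold in R9. The groups of both members did not overlap, although the highest progenitor and the lowest stem cell value of S100a13 (31.0 and 31.1 CPM) nearly met. The R10 folds of both members pool the stem cell lines. The R1 libraries lay above those of O4G, from which the progenitors were made (values below, not called between lines). S100a6 was at 0.635 to 85.9 CPM against 36.0 to 107 CPM in R10 (2.37-fold, 2.43 ± 0.75, limma adjusted p = 0.00909), with overlap, and 7.80-fold higher in R9. Without the OKS progenitor library (85.9 CPM) the R10 fold was 5.90. In R9 the fold of S100a6 was 5.12 without the R1 stem cells and 13 without wild-type progenitor replicate 1, and without the latter that of S100a1 was 65.9, on a progenitor level of single reads. edgeR and DESeq2 did not call S100a6 in R10. S100a10 (-0.43 ± 0.23, limma adjusted p = 0.108) was not called, and S100a11 (0.64 ± 0.17, limma adjusted p = 0.00409) was under the size threshold. S100a4 had 2 reads in R10 stem cells against 18 in progenitors and was not tested there; in R9 (0 against 5 reads) it was not called (-1.25 ± 0.62, limma adjusted p = 0.148). S100g was too low to test in either kind. With the R1 library of no replicate number as the only stem cell library, 2 members (S100a1 and S100b) were called; the spread then comes from the progenitors alone. Of 14 partner genes 5 were called higher and 4 lower in stem cells in R10, led by Fgf1 (-5.89), Plat (-5.78) and Anxa11 (4.83). Anxa2 was called lower (-1.87 in R10, -3.79 in R9), while S100a10 was lower by less than the threshold; the difference between these genes was not tested. Of 13 other small EF-hand genes 7 were called lower and 1 higher, led by Ncs1 (-3.62), Sri (-2.54) and Hpcal1 (-2.17).

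No member passed the test between the stem cell lines. In R10 S100a1 was at 52.2, 50.2 and 26.9 CPM in the R1 line, at 10.4 and 12.1 CPM in O4G and at 16.2 and 15.5 CPM in R1 clone 3. S100a13 was at 137, 157 and 122 CPM in R1, at 31.1 and 65.0 CPM in O4G and at 54.8 and 49.6 CPM in clone 3. For both genes the 3 R1 libraries lay above the other 4. limma's F test over the lines called 0.0265% of genes (4) and 0 of the 5 members tested, with an adjusted p of 0.135 for S100a1 (R1 over O4G 1.80 ± 0.30) and for S100a13 (1.59 ± 0.28). At an unadjusted p under 0.05 there were 3 members, edgeR called 0 and DESeq2 2, and without the R1 library of no replicate number 2 were called (S100a1 and S100a13). In R9, with 1 library a line, S100a1 was at 43.7 CPM in R1 and 30.3 in O4G, and S100a13 at 96.8 and 103 CPM, where O4G was slightly the higher. S100a6 (adjusted p = 0.838, limma F test), S100a10 (0.167) and S100a11 (0.392) were not called, with ranges of 36.0 to 107, 66.1 to 169 and 37.0 to 57.7 CPM over the 7 R10 libraries. S100a4, S100b and S100g were too low to test.

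Across the 45 libraries the members fell into sets by their pattern, after the mean of each kind of library was removed from log2(CPM + 1). These are descriptions over libraries that share stages and culture media. S100a4, S100a6, S100a10 and S100a11 correlated with each other at a Pearson r of 0.79 to 0.87, S100a1 and S100a13 at 0.72, and S100a11 and S100g at 0.72. S100b was at or below 0.20 with every member but S100g (0.39), and at -0.52 with S100a1. The pair S100a1 and S100a13 needs care, since the main deposited S100a1 transcript has a first exon of 675 bases that overlaps the start of S100a13 on the other strand, and whether counting used strand is not stated. The deposited spans of S100a4 and S100a6 overlap, and S100a11 has a processed pseudogene on chromosome 12, so reads shared between such neighbours or copies are uncertain.

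The genes most like each member, among 11583 genes with a mean of at least 5 CPM, were Acta2 (r = 0.95), Tagln (0.95) and Tm4sf1 (0.94) for S100a4, and Rras2 (0.93), Anxa1 (0.93) and Ccn2 (0.91) for S100a6. For S100a10 they were Lmna (0.93), Podxl (0.93) and Acta2 (0.91), and for S100a11 Cryab (0.96), Klhdc8a (0.95) and Plscr2 (0.95). S100b was most like Adam12 (0.95), Nsg1 (0.94) and Lrrc4b (0.94), and S100g most like Gfap (0.93), Scg2 (0.93) and Slc39a12 (0.92). The likeness was weaker for S100a1 (Rnh1 0.83, Galt 0.82, Jak3 0.82) and S100a13 (Ampd3 0.82, Jam2 0.79, Cdc42ep3 0.78).

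The long reads also gave the transcripts of each gene. The deposited annotation kept 91 transcripts of the 8 members: 26 matched an annotated transcript at all splice sites, 9 matched a part of one, 3 combined known sites, and 53 used sites outside the annotation. The deposited starts, short exons and short gaps given below were not checked against the read alignments. In 2 members the main deposited transcript began far upstream of the annotated start. For S100a6 it was a transcript of 470 bases in 4 exons, with a 16-base first exon 13221 bases upstream, before S100a4 on the same strand. It held 85.8 ± 5.58% of S100a6 TPM in progenitors (n = 3, libraries with at least 20 TPM), 88.7 ± 2.78% on days 2 to 6 (n = 11), 91.9 ± 2.06% in late serum (n = 6), 82.0 ± 7.15% in 2i-LIF (n = 5) and 85.4 ± 4.21% in stem cells (n = 9). In the medium control it held less, 66.8 ± 5.85% (n = 3), and a transcript with the annotated splice pattern held 27.7 ± 8.47%, against means of 3.06 to 12.7% elsewhere. The S100a6 and S100g windows printed above are thus not the sequences before the starts of their main deposited transcripts. The main deposited transcripts of S100a1, S100a11 and S100a4 began 483, 170 and 52 bases upstream of the GENCODE start. The printed segment between S100a1 and S100a13 therefore lies inside the first exon of that S100a1 transcript, and the TATA match of S100a4 and the AP-1 and GC box matches of S100a11 lie inside the first exons of theirs.

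For S100g the main transcript had 4 exons, with a 49-base first exon 15794 bases upstream, and held 98.4 to 100% of S100g TPM in 13 libraries, while none of its TPM had the annotated splice pattern. S100b was the opposite case: 100% of its TPM had the annotated pattern in 17 libraries, with 87.7 ± 6.98% in 1 transcript. S100a1 was close to that (96.3 ± 6.45%, n = 29). S100a10 was mostly in a transcript with a 33-base gap near its end (51.9 to 88.1% of TPM, n = 45). A form with a 39-base last exon 21282 bases further on held 11.6 ± 5.41% in progenitors (n = 8), 23.7 ± 1.56% in the medium control (n = 3), 24.9 ± 3.24% on days 2 to 6 (n = 11) and 14.3 ± 3.20% in stem cells (n = 9). A form of S100a13 with 4 exons and an unannotated splice pattern held 21.5 ± 13.5% on days 2 to 6 (n = 8) and 4.39 ± 3.62% in stem cells (n = 8). S100a4 divided between the annotated first exon (67.8 ± 9.27%, n = 21) and an alternative one (13.6 ± 8.63%). These shares were not tested between stages, TPM carry no read depth, and the coding label of the deposited table, which called 22 of 26 S100a6 and both S100g transcripts non-coding, was not checked.

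**Figure D4:**
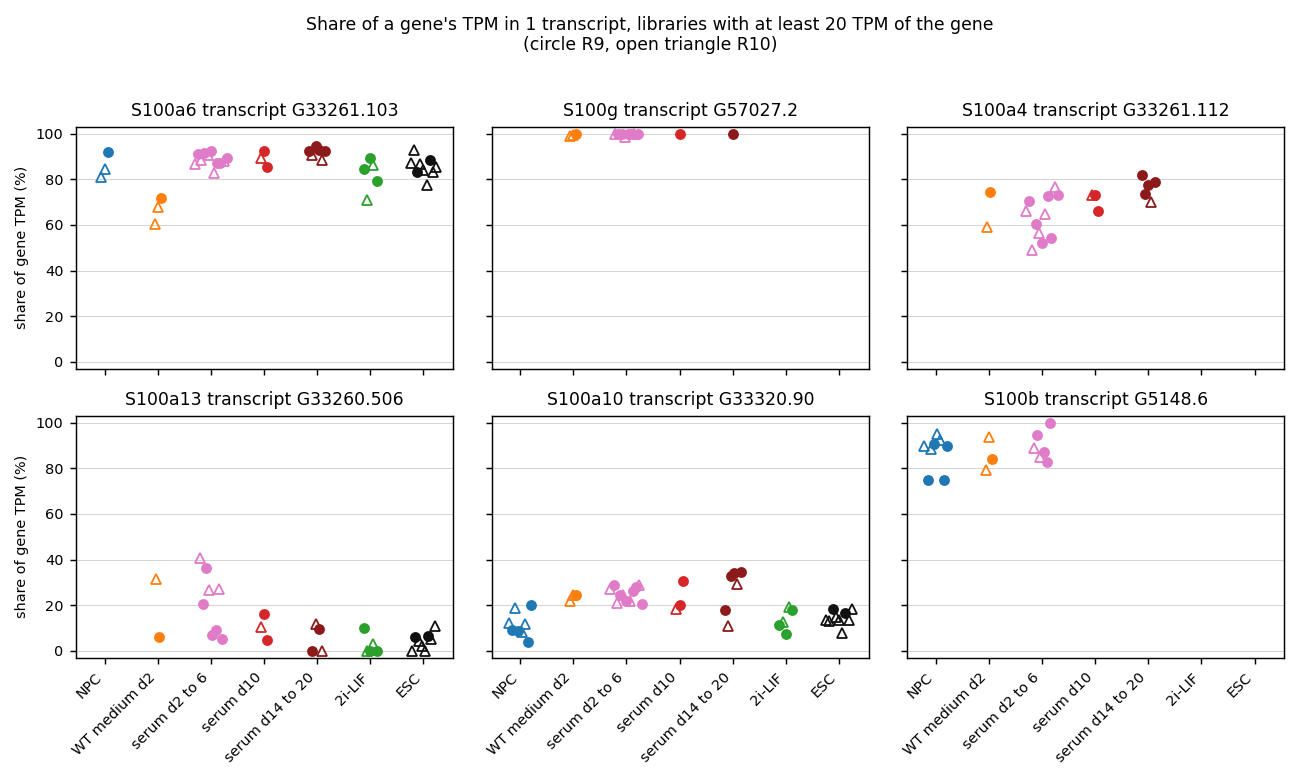
Share of a gene's TPM (percent, y axis) held by 1 transcript of 6 members, by stage, 1 point per library with at least 20 TPM of the gene. The upstream-starting S100a6 transcript is lowest in the medium control (66.8%). The long-gap S100a10 form has stage means of 23.1 to 26.6% in serum medium, the medium control included, and of 11.6 to 14.3% elsewhere.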

How the data were processed

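Gene values were CPM and transcript values TPM, both deposited by the authors in whole-series tables. The submitters' processing notes name minimap2 2.24-r1122 and mm10, the counting program's settings and its use of strand are not given in the sources used here, and 13 gene table columns that match no sample were not used. In each library 100% of the CPM values were, within 0.02 reads, whole numbers of 1 read's worth, so reads and depth could be recovered. log2(CPM + 1) was tested with limma 3.58.1 (eBayes with trend, two-sided, R 4.3.3) over genes of at least 1 CPM in as many libraries as the smaller arm (in 2 libraries for F tests). A call needed an absolute difference of at least 1 and a p under 0.05 after Benjamini-Hochberg adjustment. The scale understates changes of low genes. TPM served only to compare members and transcripts. Transcript length alone did not account for the gap between TPM and CPM, and whether these TPM allow for length was not checked. In the R10 OKMS day 2 library S100g was at 19.0 CPM and 86.5 TPM, and S100a6 at 1561 CPM and 1487 TPM. Their main transcripts had 489 and 470 bases. Rankings and shares of members in TPM hold for those values only. Alternatives were edgeR 4.0.16 and DESeq2 1.42.0 (fitted to recovered reads), other pseudocounts, filters, scalings, arms and left-out libraries. The fits were tested on simulated data. All 8 members are named in each comparison between groups of cells, also where too low to test, but not in that of R10 against R9. Of the partner and EF-hand lists, the 3 genes with the largest difference among those called are named. Anxa2 was added after its values were seen, as the partner of S100a10, and Gfap as a marker. The members and lists were chosen with earlier results of these data known.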

Additional observations from a re-analysis of the deposited data

Results flagged for a closer look

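Among the 24 groups of 4 to 10 libraries in which the members were examined for a value far from the rest, 3 had one, each of 1 or 2 reads where the other libraries of the group had 0. They were S100a4 at 0.519 CPM in R1 stem cell replicate 1 of R10, S100g at 1.34 CPM in wild-type progenitor replicate 1 of R9, and S100g at 0.747 CPM in the R1 stem cell library with no replicate number in R10. Chance flags about 1 in 20 groups of values that vary continuously, but a group in which only 1 library has any read always meets the criterion, so that rate does not apply to these 3.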

How the results depend on the processing

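Of 1343 alternative values of single members, 1177 kept their direction and their side of the threshold, 94 no longer passed, 37 newly passed and 35 changed sign. The counts of called members that moved by over 1.5 times are given here by comparison; the cause was not tested. Stem cells against progenitors gave 2 in R10 with only the R1 library of no replicate number, and 2 to 5 in R9 with 1 library left out. The medium control gave 0 in R9 and 0 to 1 with 1 library left out. Factors against wild type at day 2 gave 2 with median centring, DESeq2 or both kinds of library, 0 in R9, and 0 to 1 with 1 library left out. The R9 time course gave 2 with no system term. The R10 time course gave 0 with a pseudocount of 0.25 or no filter, 7 with edgeR or DESeq2, 1 with no system term, and 0 to 5 with 1 day left out. OKMS against OKS gave 0 in R10 pairs or with no day block. The stem cell lines gave 2 with DESeq2 and 0 to 2 with 1 library left out, and R10 against R9 gave 1 with edgeR, where limma and DESeq2 called 0 of 8 members (12.1% of all genes in limma) and 2 had an unadjusted p under 0.05 in limma.

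Counts over all genes also moved by over 1.5 times. The 3940 genes of the medium control became 1562 in R9 and 0 to 1141 with 1 library left out. The 114 genes of factors at day 2 became 74 with a pseudocount of 0.25, 181 with a minimum of 5 CPM, 29 with quantile normalization, 399 with median centring, 334 with edgeR, 464 with DESeq2, 0 in R9 and 232 with both kinds. The 2078 genes of the R9 course became 4568 with edgeR, 318 with no system term and 601 to 2423 with 1 day left out, and the 371 of the R10 course became 0 with no filter, 1 with a pseudocount of 0.25, 614 with at least 5 CPM required, 1035 with median centring, 2327 with edgeR and 1604 with DESeq2. The 2567 genes between OKMS and OKS became 0 in R10 pairs and 2 with no day block, and the 1832 of 2i-LIF against serum 1166 in R9 pairs and 188 in R10 pairs. The 502 genes of 2i-LIF against stem cells became 246 with a minimum of 5 CPM, 223 with edgeR, 300 with DESeq2, 110 in R9 and 1438 in R10, and the 2558 of late serum 1580 with a minimum of 5 CPM and 191 in R9. The 4 genes between lines became 129 with DESeq2 and 654 with the replicate block.

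Replicate numbers are shared by wild-type progenitors and medium control in R10 and by stem cell lines, and the labels do not say that they pair samples. With the replicate number as a block, 7 members (6 without it, with S100a4 as the added one) were called in the medium control and 2 (0 without it, S100a1 and S100a13) between stem cell lines. Same-numbered deviations correlated at 0.51 in the former and at 0.18, 0.08 and 0.14 between lines.

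No called difference changed sign in any alternative, and the differences that did are these. Leaving out 1 library, S100b in the medium control ranged from -1.45 to 0.83 (0.41 without progenitor replicate 3). With factors at day 2 the ranges were -2.40 to 0.18 for S100a1, -0.41 to 3.49 for S100a4, -0.12 to 0.0087 for S100a10, -1.04 to 0.92 for S100a13 (0.59 without OKMS) and -1.92 to 0.38 for S100b (0.37 without wild-type replicate 3). In R9, S100a10 became 0.58 and S100b 1.21, and with both kinds 0.20 and 0.023. Between OKMS and OKS with 1 day left out, S100a6 ranged from -0.33 to 0.10 and S100g up to 0.25. Between 2i-LIF and stem cells with 1 library left out, S100a1 ranged from -0.51 to 0.42 and S100a11 up to 0.083. In R9 only, S100a1 became -0.81, S100a11 0.29 and S100a13 -0.30. S100a1 in late serum against stem cells became 0.053 in R10 only, and between lines with 1 library left out S100a6 ranged from -0.34 to 1.05 and S100a10 from -0.54 up. Between R10 and R9, S100a1 was 0.30 with a pseudocount of 0.25, 0.040 with median centring and -0.19 to 0.14 with 1 condition left out. There S100a6 reached 0.24 and 0.050 without wild-type progenitors and medium control, and S100g 0.059 with a pseudocount of 0.25. Depth limits S100a4, S100b and S100g most, which rest on few or no reads in stem cells.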
